A study of Homo sapiens with 12 samples.

Results

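The 10 genes described here, SNAP25, STMN1, STMN2, STMN3, STMN4, NEFL, NEFM, MAP2, ENO2 and TUBB3, encode proteins of the neuronal cytoskeleton, the synapse and neuronal metabolism. They were picked by name out of 60604 gene identifiers, with differences between transfected cells and cells without plasmid already in view, and were read from every library of an RNA sequencing study of HEK293T cells. HEK293T is a line from human embryonic kidney, transformed with adenoviral DNA and expressing a viral large T antigen. The 12 libraries fall into 3 groups of 4. The first received dCas9-VP160, a nuclease-dead Cas9 fused to a transcriptional activation domain, together with 6 guide RNAs for the promoter of CD34. The second received dCas9-VP160 alone, and the third, called no plasmid below, received neither. The labels describe the third group once as non-transfected cells and once as cells given only the transfection reagents. Cells were collected 48 h after transient transfection in 100 mm dishes with 5.4 pmol of plasmid in total, and 1 ng of RNA entered each library. Each group was assayed in 2 experiments, each on its own batch of cells, and 2 technical replicates were made per group and experiment. No group carried a plasmid lacking dCas9-VP160, so plasmid DNA and the protein cannot be told apart as the source of a difference. The cells were measured in bulk, so fewer cells of a kind and less RNA per cell cannot be told apart either.

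Neurons keep long processes in shape with microtubules and neurofilaments. Tubulin dimers form the microtubules, stathmins bind free dimers, microtubule-associated proteins hold the polymer, and neurofilaments set the calibre of axons. At the synapse, SNAP25 joins a syntaxin and a synaptobrevin in the SNARE complex that fuses vesicles with the membrane. In most cells outside the nervous system the repressor REST, with its corepressors, binds an element called RE1 in many neuronal genes and keeps them low. HEK293 cells are known for carrying some neuronal transcripts, neurofilament among them.

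Depth ran from 6750035 to 11932244 gene counts per library, with 26115 to 28418 genes seen at all. CD34, the gene that the guides address, had 664 to 942 counts per library with guides, 7 to 10 with dCas9-VP160 alone and 13 to 28 in no plasmid cells. Spike-in sequences made up 0.719% and 0.404% of the counts in the replicates of no plasmid cells in experiment 1, and at most 0.00818% in every other library. Among 8 markers of embryonic kidney, CDH16 was at 0 with dCas9-VP160 alone and in no plasmid cells, and the summed level was 26.9 to 30.3 counts scaled to library size (CPM) with guides, 28.5 to 34.3 CPM with dCas9-VP160 alone and 43.6 to 48.2 CPM in no plasmid cells.

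The members spanned the whole range of expression. Per exon length, as counts scaled to library size and to exon length (RPKM), STMN1 and NEFL stood at the top. STMN1, the stathmin of dividing cells, averaged 133 ± 13.6 RPKM with guides, 121 ± 10.1 with dCas9-VP160 alone and 141 ± 15.3 in no plasmid cells (SD, n = 2 experiments). NEFL, the light neurofilament subunit, averaged 126 ± 5.78 RPKM with guides, 114 ± 10.2 with dCas9-VP160 alone and 80.6 ± 7.15 in no plasmid cells. These levels placed NEFL at percentile 98.8, 98.6 and 97.8 of the 19457 tested genes with a known length, in the same order of groups. The gap between STMN1 and NEFL exceeded the sum of their SDs in no plasmid cells and not in either transfected group. ENO2 and STMN3 came next, at 21.1 ± 2.4 and 11.3 ± 0.987 RPKM with guides, 17.8 ± 1.42 and 11.4 ± 0.82 with dCas9-VP160 alone, and 11.3 ± 0.773 and 12.3 ± 0.219 in no plasmid cells. The order of ENO2 and STMN3 in no plasmid cells depended on gene length, since by the longest transcript ENO2 stood at 17.1 RPKM and STMN3 at 15.9.

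MAP2 and SNAP25 lay in the middle. MAP2 averaged 3.03 ± 0.0296 RPKM with guides, 3.15 ± 0.0269 with dCas9-VP160 alone and 5.68 ± 0.427 in no plasmid cells. SNAP25 averaged 1.67 ± 0.223 RPKM with guides, 2.94 ± 0.403 with dCas9-VP160 alone and 0.652 ± 0.0758 in no plasmid cells. It reached the level of MAP2 within their SDs with dCas9-VP160 alone, and lay below MAP2 by more than the SDs with guides and in no plasmid cells. STMN4, NEFM and TUBB3 were at most 1.18 RPKM in any group. STMN2 had 0 counts in all 12 libraries, which allows up to 0.251 to 0.444 CPM depending on the library, by counting error alone. STMN2 could not be tested, and the other 9 members passed the filter on low counts. STMN4 and TUBB3 passed it through the transfected groups, so neither could have entered the test without being higher there.

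**Figure D1:**
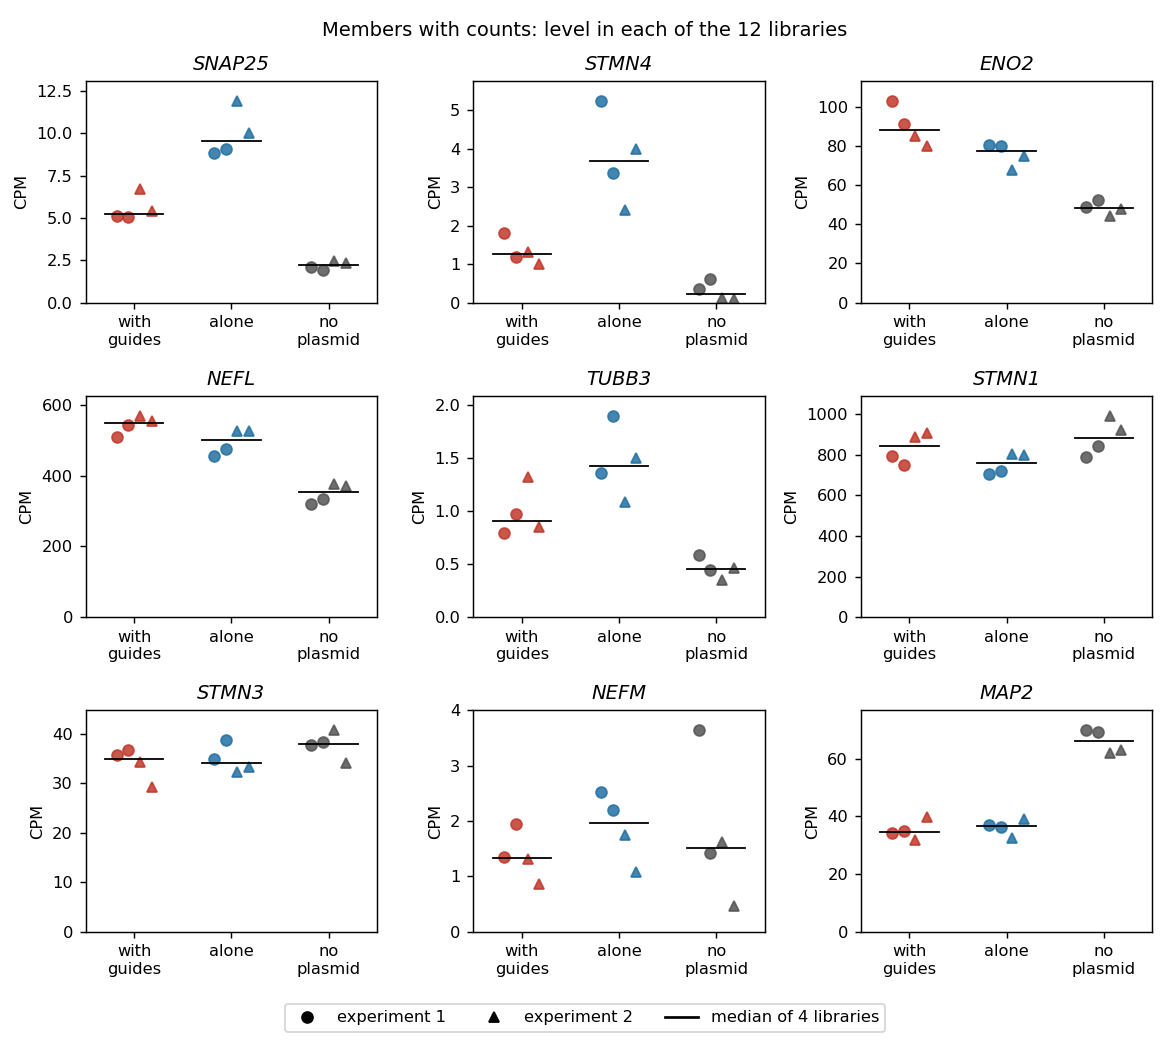
Level of the 9 members with counts in each library, as CPM on a linear axis that starts at 0 in each panel. Groups run from dCas9-VP160 with guides to dCas9-VP160 alone to no plasmid, circles are experiment 1, triangles are experiment 2, and a line marks the median of 4 libraries. SNAP25 and STMN4 form 3 separate bands with dCas9-VP160 alone on top, ENO2 and NEFL are lowest in no plasmid cells, and MAP2 is highest there.

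SNAP25 (chr20:10218830-10307418, plus strand, GRCh38) separated the 3 groups completely. In experiment 1 and then experiment 2, its libraries read 5.09, 5.06, 6.72 and 5.42 CPM with guides, 8.81, 9.08, 11.9 and 10.0 CPM with dCas9-VP160 alone, and 2.11, 1.95, 2.43 and 2.34 CPM in no plasmid cells. Every library with dCas9-VP160 alone lay above every library with guides, and all of those lay above every no plasmid library. Such a lack of overlap held for 8.53% of all genes tested between guides and dCas9-VP160 alone, for 38.9% between guides and no plasmid, and for 37.1% between dCas9-VP160 alone and no plasmid. The log2 difference was 1.36 (SE 0.19) for guides against no plasmid and 2.17 (SE 0.16) for dCas9-VP160 alone against no plasmid. By experiment it was 1.30 and 1.34 with guides, and 2.09 and 2.14 with dCas9-VP160 alone. Both comparisons share the no plasmid libraries and were in view when the genes were picked, so these values are descriptions.

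The widely expressed relative SNAP23, which does the same work at the membrane of non-neuronal cells, was near 12 RPKM throughout, at 11.3 ± 0.522 with guides, 11.4 ± 0.218 with dCas9-VP160 alone and 12 ± 0.427 in no plasmid cells. SNAP25 therefore made up 12.9% ± 0.983 of the summed SNAP25 and SNAP23 level with guides, 20.4% ± 1.92 with dCas9-VP160 alone and 5.14% ± 0.395 in no plasmid cells (SD, n = 2). The antisense gene SNAP25-AS1, which shares no exon base with SNAP25, had 24 to 45 counts per library. SNAP25 itself had 18 to 25 counts per no plasmid library and 38 to 120 in the others.

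STMN4, a brain stathmin on chromosome 8, followed the same order at a lower level. Its counts were 16, 11, 12 and 7 with guides, 54, 23, 22 and 48 with dCas9-VP160 alone, and 3, 7, 1 and 1 in no plasmid cells. The groups did not overlap. The mean was 1.34 ± 0.221 CPM with guides, 3.9 ± 0.833 CPM with dCas9-VP160 alone and 0.302 ± 0.282 CPM in no plasmid cells (SD, n = 2). The log2 difference from no plasmid was 2.11 (SE 0.44) with guides and 3.66 (SE 0.34) with dCas9-VP160 alone. By experiment it was 1.39 and 2.61 with guides, and 2.92 and 4.02 with dCas9-VP160 alone. Over the alternatives it ran from 1.54 to 3.36 with guides and from 3.10 to 4.83 with dCas9-VP160 alone, with the highest values from the fit of experiment 2 alone, where each no plasmid library held 1 count.

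ENO2, the neuronal isoform of the glycolytic enzyme enolase (chr12:6913745-6923698, plus strand), was higher in both transfected groups. It read 103, 91.2, 85.1 and 80.1 CPM with guides, 80.5, 80.1, 67.7 and 74.8 CPM with dCas9-VP160 alone, and 48.7, 52.7, 44.2 and 47.9 CPM in no plasmid cells. No transfected library came down to the no plasmid range, whereas the lowest library with guides lay just under the highest with dCas9-VP160 alone. The log2 difference from no plasmid was 0.90 (SE 0.05) with guides and 0.65 (SE 0.06) with dCas9-VP160 alone. The general isoform ENO1 remained far more abundant, at 444 ± 24.1 RPKM with guides, 420 ± 19.2 with dCas9-VP160 alone and 327 ± 15.8 in no plasmid cells. The share of ENO2 among the 3 enolases ENO1, ENO2 and ENO3 was 4.15% ± 0.283 with guides, 3.68% ± 0.17 with dCas9-VP160 alone and 2.99% ± 0.105 in no plasmid cells.

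NEFL read 509, 542, 569 and 555 CPM with guides, 456, 474, 525 and 526 CPM with dCas9-VP160 alone, and 321, 335, 376 and 370 CPM in no plasmid cells. Both transfected groups lay wholly above the no plasmid libraries. The log2 difference from no plasmid was 0.64 (SE 0.04) with guides and 0.50 (SE 0.04) with dCas9-VP160 alone. NEFM, the medium subunit that assembles with NEFL, was near the floor in the same cells, at 6 to 18 counts per library with guides, 13 to 26 with dCas9-VP160 alone and 5 to 31 in no plasmid cells. NEFM overlapped between all groups. NEFL alone made up 96.5% ± 0.533 of the summed level of NEFL, NEFM, NEFH, INA and PRPH with guides, 96.6% ± 0.494 with dCas9-VP160 alone and 97.1% ± 0.447 in no plasmid cells.

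TUBB3, the beta-tubulin used as a marker of neurons (chr16:89921392-89938761, plus strand), had few counts. Its counts were 7, 9, 12 and 6 with guides, 14, 13, 10 and 18 with dCas9-VP160 alone, and 5, 5, 3 and 5 in no plasmid cells. Both transfected groups lay above the no plasmid libraries by a few counts. The log2 difference from no plasmid was 1.11 (SE 0.42) with guides and 1.64 (SE 0.38) with dCas9-VP160 alone. Even so TUBB3 was 0.0388% ± 0.00819 of the summed beta-tubulin level with guides, 0.0539% ± 0.00449 with dCas9-VP160 alone and 0.0124% ± 0.00091 in no plasmid cells, a pool led by TUBB4B and TUBB. Of its exon bases, 1584 (35.8%) are shared with a read-through gene on the same strand that had 0 counts in every library. The longest TUBB3 transcript has 1978 bases. Reads of TUBB3 may therefore be missing from the counts, and its level and share may be higher than given here.

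MAP2, which binds microtubules in dendrites (chr2:209424058-209734118, plus strand), ran the other way. It read 34.2, 35.1, 31.7 and 39.8 CPM with guides, 37.0, 36.2, 32.4 and 39.1 CPM with dCas9-VP160 alone, and 69.8, 69.2, 61.8 and 62.9 CPM in no plasmid cells. The transfected groups overlapped each other fully and lay wholly below the no plasmid libraries. The log2 difference from no plasmid was -0.91 (SE 0.06) with guides and -0.85 (SE 0.06) with dCas9-VP160 alone. Among MAP2, MAP4, MAPT, MAP1A and MAP1B, MAP2 made up 11% ± 0.0802 with guides, 11.8% ± 0.854 with dCas9-VP160 alone and 16.6% ± 1.42 in no plasmid cells.

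The remaining stathmins moved little. STMN1 (chr1:25884181-25906991, minus strand) read 796, 751, 889 and 906 CPM with guides, 707, 721, 807 and 798 CPM with dCas9-VP160 alone, and 789, 843, 993 and 924 CPM in no plasmid cells. All 3 groups overlapped across experiments, and within each experiment dCas9-VP160 alone was lowest. The log2 difference from no plasmid was -0.08 (SE 0.03) with guides and -0.22 (SE 0.03) with dCas9-VP160 alone. STMN3 (chr20:63639705-63657682, minus strand), a stathmin of the nervous system, ranged over 29.2 to 36.7 CPM with guides, 32.3 to 38.8 CPM with dCas9-VP160 alone and 34.1 to 40.7 CPM in no plasmid cells. STMN1 supplied 91.9% ± 1.43 of the summed stathmin level with guides, 90.5% ± 1.44 with dCas9-VP160 alone and 91.9% ± 0.995 in no plasmid cells.

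**Figure D2:**
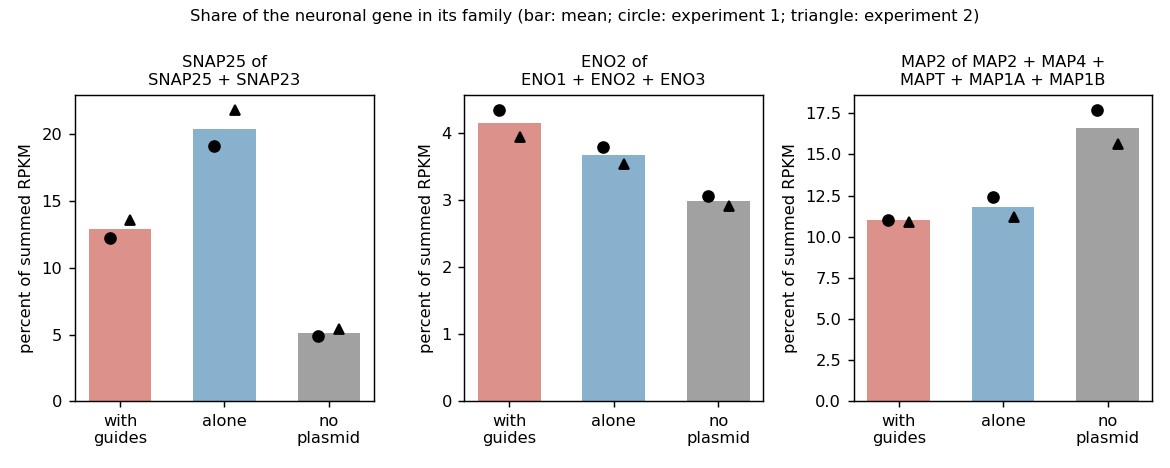
Share of SNAP25, ENO2 and MAP2 in the summed RPKM of the named relatives, in percent, for dCas9-VP160 with guides, dCas9-VP160 alone and no plasmid. Bars are means of 2 experiments, circles are experiment 1 and triangles are experiment 2. The share of SNAP25 was 12.9%, 20.4% and 5.14% in that order of groups, and the share of MAP2 was highest in no plasmid cells.

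Counted over the 9 tested members, guides against no plasmid gave 5 members above and 2 below at an adjusted p under 0.05 with edgeR's quasi-likelihood test, where 52.6% of the 19662 genes tested were called, 26.7% higher and 25.9% lower. For dCas9-VP160 alone against no plasmid the counts were also 5 above and 2 below, where 51.2% of genes were called, 26.6% higher and 24.6% lower. In each of these comparisons the libraries of 6 members did not overlap, with SNAP25, STMN4, ENO2, NEFL and TUBB3 above and MAP2 below, beside 38.9% of all genes without overlap for guides and 37.1% for dCas9-VP160 alone. The median log2 difference of the 9 members was 0.64 with guides and 0.50 with dCas9-VP160 alone, beside -0.02 and 0.00 over all genes. These contrasts helped to choose the members, and STMN4 and TUBB3 passed the filter only through the transfected groups. The counts are therefore given as a description only.

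**Figure D3:**
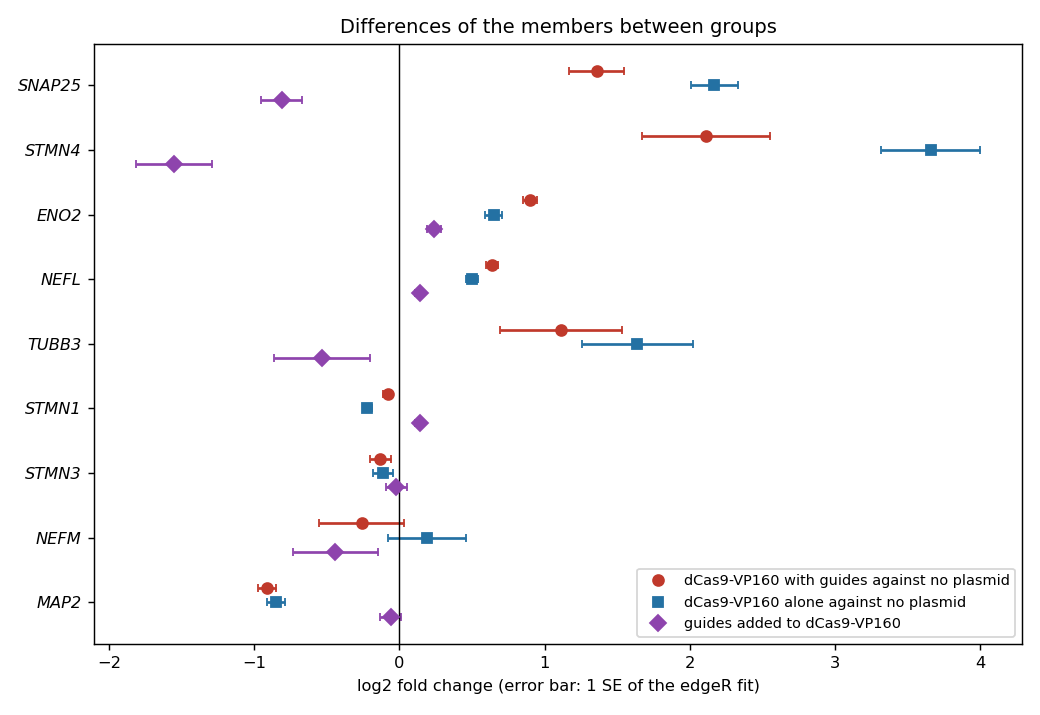
Log2 fold change of the 9 tested members (rows) for dCas9-VP160 with guides against no plasmid (circles), dCas9-VP160 alone against no plasmid (squares) and guides added to dCas9-VP160 (diamonds). Bars are 1 SE of the edgeR fit. The diamonds of SNAP25 and STMN4 lie at -0.81 and -1.55, opposite in sign to their other symbols, and those of ENO2 and NEFL lie on the same side as theirs.

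The group with guides was then tested against dCas9-VP160 alone. Both groups received 5.4 pmol of plasmid in total, and no group carried guides for another target. The guides themselves and a different amount of dCas9-VP160 plasmid within that total therefore cannot be told apart. SNAP25 and STMN4 fell with guides, and STMN1, NEFL and ENO2 rose slightly, at adjusted p-values from edgeR's quasi-likelihood test under 0.05. SNAP25 fell by 0.81 on the log2 scale, to 5.62 ± 0.75 CPM with guides, against 9.88 ± 1.35 CPM with dCas9-VP160 alone (SE 0.14, edgeR adjusted p = 3.97e-04). The difference was -0.80 in experiment 1 and -0.81 in experiment 2. STMN4 fell by 1.55 (SE 0.26, edgeR adjusted p = 3.03e-04), with -1.52 and -1.41 in the experiments.

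ENO2 rose by 0.24 (SE 0.05, edgeR adjusted p = 0.00372), STMN1 by 0.14 (SE 0.03, adjusted p = 0.00671) and NEFL by 0.14 (SE 0.03, adjusted p = 0.0113), each in both experiments. TUBB3 at -0.53 (SE 0.33), NEFM at -0.44 (SE 0.29), MAP2 at -0.06 (SE 0.07) and STMN3 at -0.02 (SE 0.07) did not pass, with edgeR adjusted p-values of 0.394 to 0.914. In all, 5 of 9 members were called, 3 higher and 2 lower, where 7.56% of all genes were called, 4.16% higher and 3.41% lower. The median log2 difference of the members was -0.06, beside 0.00 over all genes. The libraries of dCas9-VP160 alone also entered the values in view when the members were picked, so a gene that was high there by chance would look lower with guides.

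The calls of SNAP25 and STMN4 held with any single library left out. They also held in each experiment alone, where the spread is only that of technical replicates. Both calls were lost when the experiment was not a block (edgeR adjusted p = 0.338 for each, with 0 members called and 3 at an unadjusted p under 0.05). DESeq2 gave neither gene an adjusted p. The 3 small rises were less firm. Without replicate 1 of experiment 1 with guides, STMN1 had an edgeR adjusted p of 0.0793 and ENO2 of 0.0524. Without replicate 1 of experiment 1 of dCas9-VP160 alone, STMN1 had 0.0528 and NEFL 0.0858, and without replicate 2 of experiment 2 of no plasmid cells they had 0.0721 and 0.079. In each of these fits 3 members were called.

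**Figure D4:**
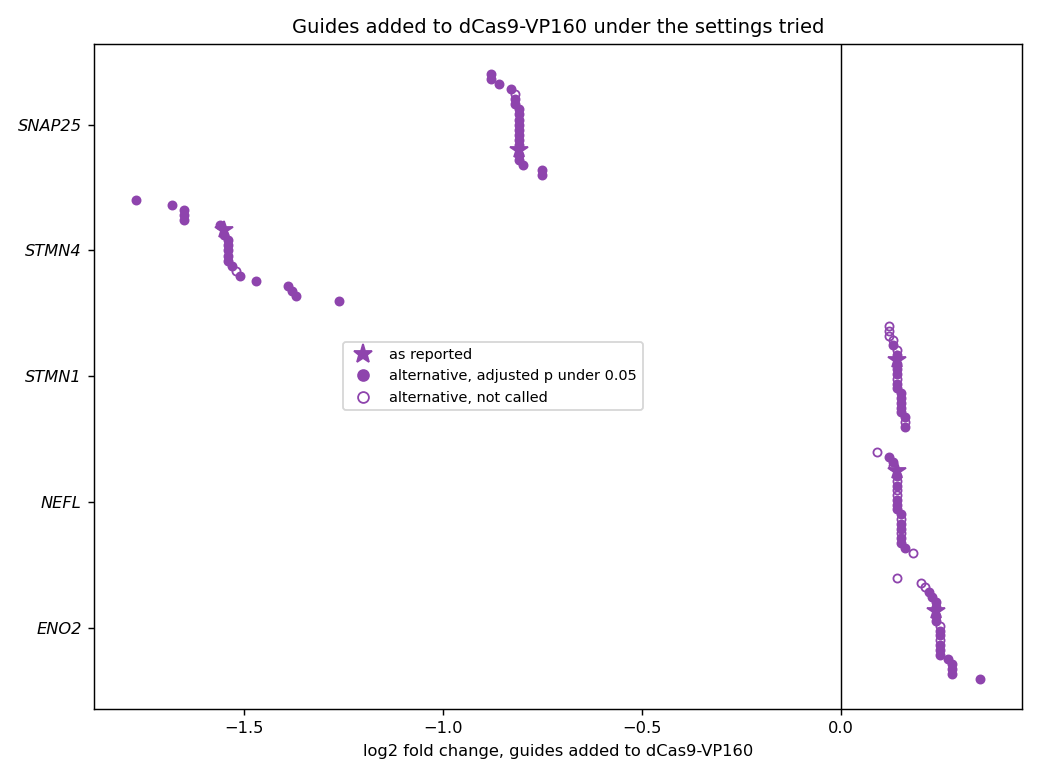
Log2 fold change of the 5 members called for guides added to dCas9-VP160 (rows), as reported (stars) and under each alternative that gave an adjusted p (circles, filled at an adjusted p under 0.05). Vertical offsets within a row only separate the points. SNAP25 lay between -0.88 and -0.75 and STMN4 between -1.77 and -1.26, with 1 open circle each, while STMN1, NEFL and ENO2 had 7, 8 and 5 open circles.

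The 2 batches of cells differed for some members. In experiment 2 against experiment 1, over the 3 groups, STMN1 was higher by 0.20 (SE 0.03, edgeR adjusted p = 2.50e-06) and NEFL by 0.15 (SE 0.03, adjusted p = 2.67e-04). NEFM fell by 0.89 (SE 0.23, edgeR adjusted p = 0.00547) and ENO2 fell by 0.18 (SE 0.04, adjusted p = 0.00305). That is 4 of 9 members, where 24.2% of genes were called. The call of NEFM was lost without replicate 1 of experiment 1 of no plasmid cells, its highest library at 3.64 CPM (log2 difference -0.66, adjusted p = 0.064), and without replicate 2 of experiment 2 of no plasmid cells, its lowest at 0.467 CPM (adjusted p = 0.0599). It was also lost without every replicate 2 (edgeR adjusted p = 0.146), and the calls of NEFL and ENO2 were lost without every replicate 1 (edgeR adjusted p = 0.0902 and 0.126). For the guides and for the plasmid, no member differed between experiments in an interaction test on the 12 libraries (edgeR adjusted p = 0.978 to 1, lowest unadjusted p = 0.0946), whose spread is that of technical replicates. Over all 17975 genes in that fit, at most 0.0111% were called in any of the 3 comparisons.

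Genes around the members in the same pathways were read from lists, which were chosen with earlier results of these data known. REST itself was slightly lower in both transfected groups, at -0.23 with guides (edgeR adjusted p = 1.77e-04) and -0.16 with dCas9-VP160 alone (adjusted p = 0.00608) against no plasmid. Of 13 genes for REST and its corepressors, 2 were higher and 6 lower with guides, and 1 was higher and 7 lower with dCas9-VP160 alone. That is 61.5% called in each comparison, beside 52.6% and 51.2% of all genes. Those lower in both comparisons included CTDSP1, a phosphatase that acts with REST, at -0.73 and -0.66, HMG20B at -0.69 and -0.58, and the deacetylase HDAC1 at -0.43 and -0.54.

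Of 20 listed REST targets outside the members, 16 were tested. With guides 10 were higher and 2 lower than in no plasmid cells, and with dCas9-VP160 alone 11 were higher and 2 lower, so that 75% and 81.2% were called, beside 52.6% and 51.2% of all genes. The median log2 difference was 0.72 and 1.08, beside -0.02 and 0.00 over all genes. SYP, a synaptic vesicle protein, rose by 1.78 with guides and 1.43 with dCas9-VP160 alone, and STX1A, the syntaxin partner of SNAP25, by 0.43 and 1.12. SCN2A, a neuronal sodium channel, rose by 0.54 and 0.43, and BDNF, a neurotrophin, fell by 0.42 and 0.31 (edgeR adjusted p at most 0.024 for these 4 genes). Only 5 of the 16 averaged at least 5 CPM, of which 3 were higher and 1 lower in each comparison. A target near 0 in no plasmid cells had to be higher elsewhere to pass the filter. The list was also chosen with earlier results of these data known, so its shares are descriptions. In experiment 2 alone, a setting chosen after seeing the data, 13 targets were tested, with 6 higher and 1 lower with guides and 7 higher and 1 lower with dCas9-VP160 alone.

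With guides added to dCas9-VP160, 3 of the 16 targets were called, 1 higher and 2 lower. That is 18.8%, beside 7.56% of all genes. STX1A fell by 0.70 (SE 0.14, edgeR adjusted p = 0.00178), and L1CAM, an adhesion molecule of axons, rose by 0.39 (SE 0.11, adjusted p = 0.0245). The third, the granin SCG2, fell by 1.04 (adjusted p = 0.00231), and averaged under 5 CPM. SCG2 had 90 counts over the libraries with guides, 205 with dCas9-VP160 alone and 3 in no plasmid cells, so its level against no plasmid was 34.1 times higher with guides (95% exact interval 11.3 to 169) and 71.1 times higher with dCas9-VP160 alone (24 to 348), by counting error alone.

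**Figure D5:**
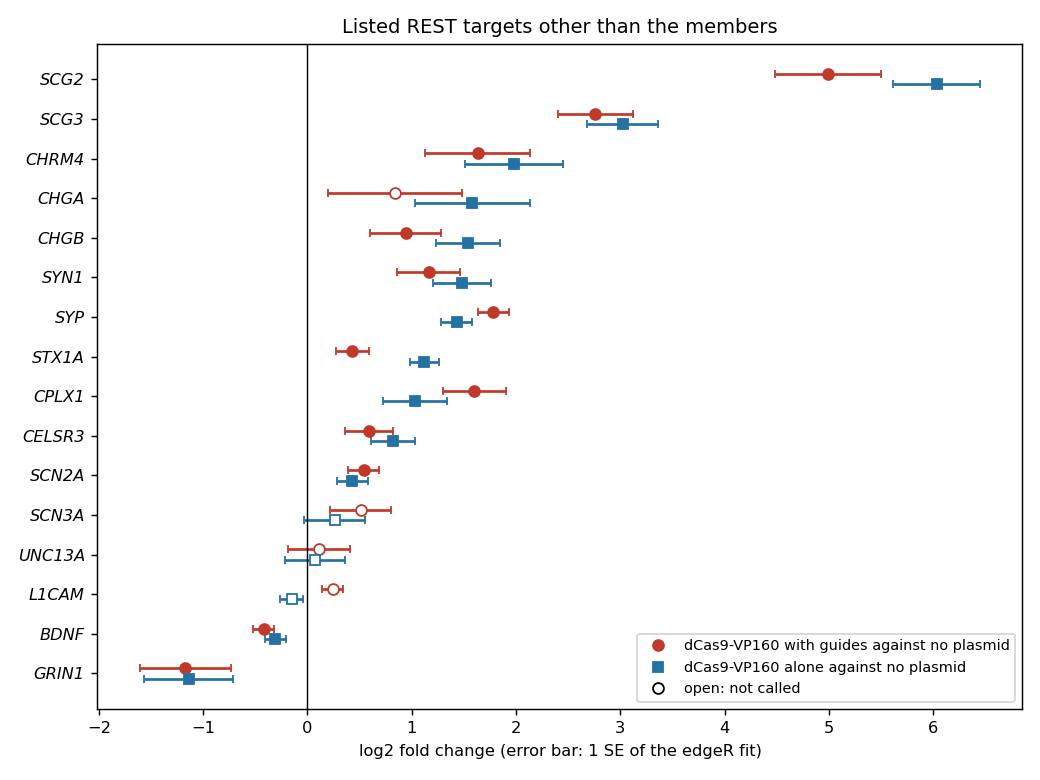
Log2 fold change of the 16 tested REST targets outside the members (rows), for dCas9-VP160 with guides (circles) and dCas9-VP160 alone (squares) against no plasmid. Bars are 1 SE of the edgeR fit, and open symbols had an adjusted p of at least 0.05. Most symbols lie right of 0, while both symbols of BDNF and GRIN1 and the square of L1CAM lie left of it. The position of SCG2 rests on 3 no plasmid counts.

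Genes closer to the members by function were mixed. Of 29 other neuronal cytoskeleton genes tested, 10 were higher and 13 lower with guides than in no plasmid cells. With dCas9-VP160 alone, 8 were higher and 12 lower. That is 79.3% and 69% called, beside 52.6% and 51.2% of all genes. INA, the alpha-internexin filament, rose by 1.65 and 1.42, and the tubulin TUBA1A fell by 0.93 and 0.94 (edgeR adjusted p at most 1.21e-07). Of 16 tubulins other than TUBB3, 1 was higher and 9 lower with guides, and 4 were higher and 7 lower with dCas9-VP160 alone. That is 62.5% and 68.8% called. TUBB4A, a beta-tubulin of the brain, fell by 0.94 and 0.80. MAPT, the axonal protein tau, fell by 0.52 and 0.53 (edgeR adjusted p = 5.21e-04 and 3.64e-04). Tubulins are close paralogs with pseudogenes, so their counts may include shared reads.

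Of 35 other presynaptic genes tested, 15 were higher and 6 lower with guides, and 14 were higher and 8 lower with dCas9-VP160 alone. That is 60% and 62.9% called, beside 52.6% and 51.2% of all genes. The calcium sensor SYT1 rose by 0.58 with guides (edgeR adjusted p = 5.51e-04), and the synaptobrevins VAMP1 and VAMP2 fell by 0.70 and 0.54. The median was 0.14 with guides and 0.15 with dCas9-VP160 alone. It was the same with the 1 gene at 0 in no plasmid cells set to its bound of 3 counts over the group. This had to be so, because that gene, with 16 and 18 counts in the transfected groups, stays above the median either way. Of 22 postsynaptic and adhesion genes, 1 was higher and 9 lower with guides, and 2 were higher and 8 lower with dCas9-VP160 alone. In each comparison 45.5% were called, under the share of all genes. ARC, an activity-regulated gene, rose by 1.56 and 1.65. Of 16 neuronal transcription factors and RNA-binding proteins, 3 were higher and 6 lower with guides. With dCas9-VP160 alone, 1 was higher and 7 lower. The shares called were 56.2% and 50%, near those of all genes. SOX2 fell by 1.04 and 0.96, and the splicing factor PTBP2 rose by 0.35 and 0.74. The presynaptic and REST target lists share genes, SYP, SYN1 and STX1A among them.

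With guides added to dCas9-VP160, 7.56% of all genes were called. Of the cytoskeleton genes 3 were higher and 1 lower (13.8% called), of the presynaptic genes 3 and 1 (11.4%), and of the postsynaptic genes 1 and 1 (9.09%). DPYSL3, a protein of growth cones, rose by 0.31 (SE 0.08, edgeR adjusted p = 0.012). PTBP2 fell by 0.39 (SE 0.07, edgeR adjusted p = 4.34e-04), and 2 tubulins were lower. The call shares of the tubulins and of the transcription factors and RNA-binding proteins were 12.5% each.

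Markers of other cell types moved with the members in part. The summed level of 8 neuron markers was 22.7 to 29.8 CPM with guides, 24.7 to 26.3 CPM with dCas9-VP160 alone and 11 to 14.6 CPM in no plasmid cells. All 8 had counts in each group, but the defining genes DCX, ELAVL3 and ELAVL4 had 1 to 9 counts per group, and SYP and GAD1 held most of the sum. The 7 glia markers summed to 32.1 to 35.9 CPM with guides, 30.8 to 35.3 with dCas9-VP160 alone and 28.9 to 35.3 in no plasmid cells. Over all genes, 25.9% were lower than in no plasmid cells with guides and 24.6% with dCas9-VP160 alone. Of 6 embryonic kidney markers tested, 6 were lower than in no plasmid cells with guides and 5 with dCas9-VP160 alone. The part of these markers in the members' differences was not tested.

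The genes most like SNAP25 over the 12 libraries were TRIT1 (Pearson r = 0.992 of log2(CPM + 1)), SRSF4 (0.985) and NFKB1 (0.984), among 12225 genes of at least 5 CPM. TRIT1 averaged 36.8 CPM with guides, 55.2 CPM with dCas9-VP160 alone and 20.8 CPM in no plasmid cells, the same order as SNAP25. Most like ENO2 were HPS1 (0.997), AARS1 (0.994) and E2F2 (0.989), and most like NEFL were TPM3, GMNN and CCDC90B (0.993 each). LTBP3 (0.987), ANTXR1 and OBSL1 (0.986 each) were most like MAP2, and GAS8 (0.959) was most like STMN4. The libraries share 3 groups and 2 batches, and these values are descriptions.

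RefSeq promoter windows (GRCh38.p14, 250 bases before to 50 after a start) were at hand for 5 of the 10 members, STMN1, STMN3, MAP2, ENO2 and TUBB3. They were searched on both strands for the AP-1 element TGANTCA, the cyclic AMP element TGACGTCA, the ATF4 core TGATGNAA, the RE1 core, CAGCACC and GGACAG with 2 bases between them, and the MYC E-box CACGTG, none of which contains another. Of 35116 promoters, 7.71%, 1.85%, 3.62%, 0.0513% and 7.26% held them in that order. AP-1 letters stood in ENO2, 94 bases before the start, and in 1 of the 2 TUBB3 windows, 21 bases before the start. E-box letters stood in 1 of the 3 STMN1 windows, 94 and 50 bases before the start. The windows of MAP2 and STMN3 held none of the 5 motifs. Whether these letters bear on the levels of the members was not tested. The windows with a match are shown, and capitals mark the match.
ENO2, chr12:6914330-6914629, plus strand: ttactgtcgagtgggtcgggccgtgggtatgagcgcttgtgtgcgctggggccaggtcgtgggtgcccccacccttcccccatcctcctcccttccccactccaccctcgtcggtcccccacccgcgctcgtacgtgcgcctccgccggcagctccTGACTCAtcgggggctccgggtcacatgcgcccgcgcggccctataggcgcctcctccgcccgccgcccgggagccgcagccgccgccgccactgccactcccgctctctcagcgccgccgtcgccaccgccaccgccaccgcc
TUBB3, chr16:89921675-89921974, plus strand: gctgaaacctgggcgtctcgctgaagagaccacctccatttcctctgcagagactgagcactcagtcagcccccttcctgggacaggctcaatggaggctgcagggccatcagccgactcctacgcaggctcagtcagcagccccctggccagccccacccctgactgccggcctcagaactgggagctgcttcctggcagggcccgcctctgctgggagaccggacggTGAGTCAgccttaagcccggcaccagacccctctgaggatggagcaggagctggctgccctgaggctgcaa
STMN1, chr1:25906370-25906669, minus strand: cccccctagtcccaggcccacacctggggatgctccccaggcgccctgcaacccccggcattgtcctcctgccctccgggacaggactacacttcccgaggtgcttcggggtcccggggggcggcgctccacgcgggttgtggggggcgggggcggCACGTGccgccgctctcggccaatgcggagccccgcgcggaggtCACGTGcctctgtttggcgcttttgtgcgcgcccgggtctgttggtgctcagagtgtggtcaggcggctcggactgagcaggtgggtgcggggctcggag

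None of the 10 members is in the authors' deposited table of 97 genes.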

How the data were processed

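RNA sequencing reads of 12 HEK293T libraries were deposited by the authors as raw counts per gene. Per the submitters' processing notes, Trim Galore 0.3.7, STAR 2.6.0c with hg38, Picard 2.17.1 and DESeq2 1.16.1 were used. No source used here names the counting program. The labels call the libraries directional, but the kits named in their protocols do not mark strand. Reads of a gene and of an antisense partner may therefore not be separated. This would touch NEFL (11.3% of exon bases) and NEFM (38.9%). Per the file headers, the authors' table of 97 genes holds a mean normalised signal, log2 fold changes with SEs, a Wald score and p-values. None of its values is used here.

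The members and gene lists were chosen with earlier results of these data known. Technical replicates differed by more than sampling noise and were summed, giving 6 libraries and n = 2 experiments per group. The test was that of edgeR 4.0.16 under R 4.3.3 (filterByExpr with a minimum count of 10, TMM, robust quasi-likelihood fit), with the experiment as a block and all 3 groups in one fit. Spike-ins were left out of library sizes. Of 60604 genes, 19662 were tested, and p-values were adjusted by Benjamini-Hochberg over all of them. Per the labels, libraries of the same experiment come from the same cell batch. As a check, differences between experiments correlated at 0.616 to 0.631 between groups over 12875 genes. The fit had 2 residual degrees of freedom and a median prior of 24. P-values between groups rest on how the group differences varied between 2 batches of 1 cell line, together with that prior. The shift between batches that all groups share is removed by the block. The step was tested on simulated data. CPM are TMM-scaled. RPKM use the union of GENCODE 29 exons. By-experiment log2 differences use a prior count of 2. Named genes are all members and, from each list, up to 3 genes per direction with the largest absolute log2 difference among those called with a mean of at least 5 CPM. SCG2 and the other REST targets in the plot were named after their values were seen. DESeq2 1.42.0, other size factors, no filter, separate libraries, left-out libraries and single experiments were tried as alternatives. One list of cell type markers is not reported here.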

Additional observations from a re-analysis of the deposited data

How the results depend on the processing

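The number of genes called depended on the test and the block. For guides added to dCas9-VP160, edgeR with the experiment as a block called 1487 genes (817 higher, 670 lower), DESeq2 360 (270 higher, 90 lower), experiment 1 alone 446, experiment 2 alone 292, and the fit with no replicate block 1, which was CD34, with 1465 genes at an unadjusted p under 0.05. Fits of a single experiment rest on the spread of technical replicates. DESeq2 gave no adjusted p for 8005 genes of that comparison. Members called numbered 5 as reported, 1 with DESeq2, 3 and 2 in experiments 1 and 2 alone, and 0 with no replicate block. With DESeq2, SNAP25, STMN4, NEFM and TUBB3 had no adjusted p, NEFL had a DESeq2 adjusted p of 0.0587 and ENO2 of 0.0615. For dCas9-VP160 alone against no plasmid, edgeR called 10070 genes, DESeq2 6174 and the fit with no replicate block 5564. For guides against no plasmid the counts were 10347, 6647 and 6098, and for experiment 2 against 1 edgeR called 4751 and DESeq2 2134. The cause of these gaps was not tested.

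Leaving out 1 replicate or library gave 417 to 1870 genes and 2 to 5 members for the guides, 7428 to 10033 genes for dCas9-VP160 alone, 7577 to 10307 for guides against no plasmid, and 2255 to 4969 genes and 2 to 5 members between experiments. Without replicate 2 there were 792 genes and 4 members for the guides, and 3154 genes and 4 members between experiments. The lowest guide counts came without replicate 1 (417 genes), without replicate 2 of experiment 2 of no plasmid cells (723) and without replicate 1 of experiment 1 with guides (901). No called member changed sign under the alternatives that gave it a value, 20 or 21 of them for the guides and 17 or 18 between experiments. Members below 1 RPKM rest on few counts, and their differences cannot be resolved further from these counts. The counts of TUBB3 may also be lowered by the exon bases it shares with a read-through gene.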
